A study of Caenorhabditis elegans with 8 samples.

Results

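The smallest and the nucleosome-length DNA released inside unfertilized *C. elegans* oocytes were compared fragment by fragment. The pair was chosen by size range from the 8 libraries of the experiment: the paired-end endo-cleaved library labelled 20-80 bp, called the short library here, and the paired-end endo-cleaved library labelled 130-430 bp, called the long library. Every fragment of both lists was used. The short library held 6097218 fragments at 5930844 distinct pairs of ends, and the long library held 15331431 fragments at 13573150 distinct pairs of ends.

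Both libraries came from purified oocytes of the fer-1(b232) strain grown at its restrictive temperature. In this strain the sperm fail to fertilize, so the oocytes pass into the uterus unfertilized and replicate their DNA without dividing. The oocytes were frozen, ground and lysed directly, with no added nuclease, so that the cuts were those of an enzyme of the oocytes themselves, and the DNA was then separated by size on a gel, blunted, ligated to linkers and read from both ends. Each size range had 1 library from many pooled oocytes, and the sources used here do not say whether both were cut from the DNA of 1 preparation.

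In a nucleosome the DNA winds around a core of histone proteins, and linker DNA joins each core to the next. A nuclease reaches linker DNA most easily, so cuts on both sides of a nucleosome release a fragment of core length or of core plus linker. On the core itself the backbone turns towards the histones and away from them once in every helical turn, and an enzyme that cuts there leaves short fragments whose ends lie whole turns apart. Short and long fragments of the same locus can come from different cells, and their ends can be compared only over the whole population of oocytes.

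The fragments of the short library measured 26 to 150 nt, with a median of 59 nt and a most frequent size of 69 nt. Its size distribution had crests at 28, 38, 48, 59, 69 and 79 nt. Only 1.38% of its fragments were longer than the 80 nt of the label. The fragments of the long library measured 26 to 550 nt, with a median of 157 nt, and 4.05% lay outside the labelled range. Fragments of 140 to 150 nt, close to the length of a nucleosome core, made up 22.6% of the long library. Fragments of 160 to 200 nt made up 30.6%, those of 210 to 250 nt made up 6.73%, and those of 290 to 430 nt, long enough for a pair of nucleosomes, made up 2.06%. Of the short fragments 0.136%, and of the long fragments 0.0607%, had the same 2 ends as a fragment of the other library. Such fragments must be of the same size, and the labelled size ranges do not overlap. A low share was therefore set in advance by the size selection.

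A few places held far more fragments than the rest. In 23 of 100258 windows of 1 kb, at least 1 of the libraries had over 5 times its median over windows. These windows held 0.303% of the short and 0.260% of the long fragments. The highest lay on chromosome V from 17118001 to 17119000, with 5407 short and 14024 long fragments, in the coordinates of the lists, whose genome build is not named. Pair counts multiply the short by the long count at each place, so that these windows weighed heavily in them, and pair counts below are given with all windows and without the 23, or, for the finer shapes, without the 23. Whether these windows reflect copies of a repeated sequence was not tested.

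Short fragments were first placed within long ones. Of the short fragments, 99.86% lay wholly inside at least 1 long fragment (95% Wilson interval 99.8599 to 99.8658%), which left 8360 inside none. The long library covered the genome so densely that this share says little by itself. When the short list was moved by 1000 to 1500 nt to either side, a distance called far here, the share was 98.8%.

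Pairs of a short fragment and a long fragment were more informative than the share. A short fragment lay inside 23.4 long fragments on average, or 19.8 without the 23 windows. Pairs with the short fragment wholly inside the long one were 1.32 times as frequent as at the far offsets, and 1.12 times without the 23 windows. Pairs with the short fragment across an end of the long one were 1.25 times as frequent as at the far offsets, and 1.04 times without the 23 windows. Short fragments thus lay inside long fragments more often than across their ends, relative to the far level of each, and the ratio of the pair of values was 1.05 with all windows and 1.08 without the 23.

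The chromosomes were alike in this once the 23 windows were left out. Pairs inside then ran from 1.10 times the far level on X to 1.14 times on III and I, and pairs across an end from 1.02 times on X to 1.05 times. With all windows, chromosome V stood apart at 2.03 for pairs inside and 1.83 for pairs across an end, and it is the chromosome with the highest window. On X with all windows the ratio of inside to across was 0.947, against 1.07 without the 23 windows, so that the order of inside and across on X turned with those windows.

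Shared ends were counted next. A short fragment and a long fragment share an end where both start, or both stop, at the same base, which means a 5′ end at the same position on the same strand. Of the ends of short fragments, 25.0% lay at such a long end (95% Wilson interval 25.0110 to 25.0596%), against 11.9% at the far offsets, a ratio of 2.10. Both ends of the short fragment lay at long ends in 6.64% of the short fragments, against 1.57% at the far offsets, a ratio of 4.22. The long end at the left and the long end at the right of such a fragment belong to different long fragments, except in the few fragments that both lists held. The share that 2 independent ends would give was not computed, so the ratio of 4.22 cannot be read as enrichment beyond that of each end alone.

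The left and right ends gave the same picture. Left ends of short fragments lay at a left long end in 25.04% and right ends at a right long end in 25.03%. By chromosome the share of short ends at a long end ran from 24.5% on IV to 25.4% on V, and its ratio to the far share ran from 2.01 on X to 2.15 on III. Without the 23 windows the genome-wide share was 24.9%, so that it rested little on them.

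Counted as pairs, shared ends were 2.37 times as frequent as ends 1 to 15 nt apart, and 2.17 times without the 23 windows. Over the far level the values were 3.40 and 2.36. The drop beside the shared base was steep: without the 23 windows a short end 1 nt inside a long end was found at 1.30 times the far level, and a short end 1 nt outside at 1.23 times. By chromosome, without those windows, the shared ends over their neighbours ran from 2.11 on X to 2.23 on III. An enzyme's preference for certain bases would also place ends of both libraries at the same base, and its part in the shared ends was not tested, because no genome of the lists' build was used.

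Farther from the shared base, short ends kept the spacing of the helical turn. Around long fragments of 140 to 150 nt, without the 23 windows, same-strand short ends inside the long fragment had crests at 10, 21, 31, 42, 52, 62 and 72 nt from its end. The crest at 21 nt was the highest after the shared base, at 1.45 times the far level, against 1.35 at 10 nt, 1.41 at 42 nt and 1.27 at 72 nt. The troughs between them fell below the far level, at 0.877 at 5 nt and 0.890 at 26 nt. Outside the long fragment the crests were lower, at 1.26 at -10 nt and 1.19 at -20 nt.

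**Figure D1:**
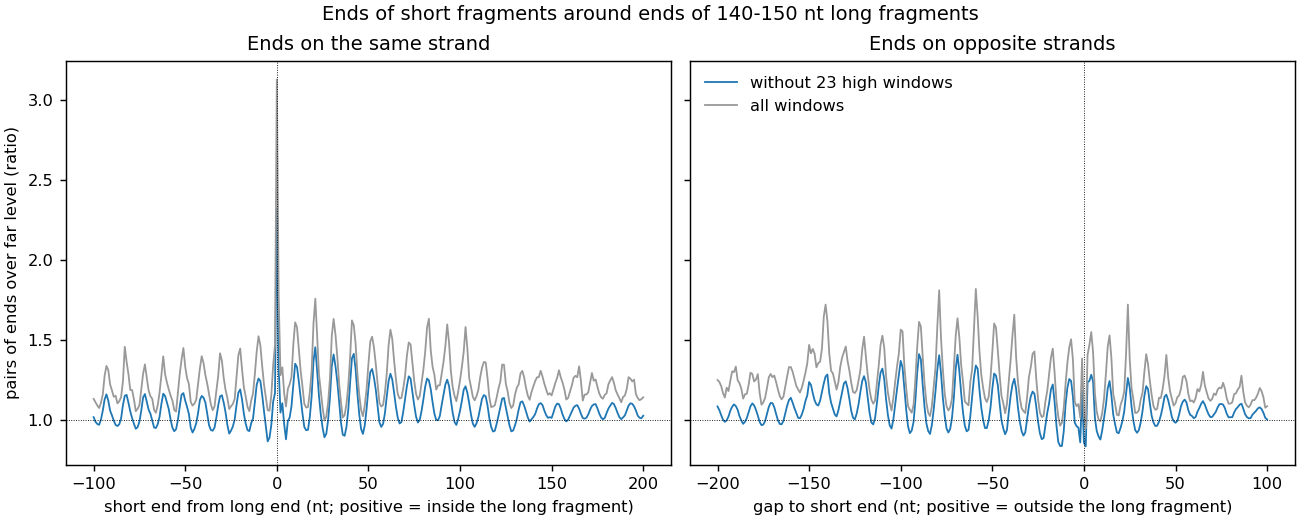
Pairs of short and long 5′ ends by their distance, over the mean number of pairs 1000 to 1500 nt apart, for long fragments of 140 to 150 nt. The left panel has ends on the same strand (positive distances lie inside the long fragment), the right panel has ends on opposite strands (positive gaps lie outside it). Blue lines leave out the 23 high windows, grey lines hold all windows, and the blue same-strand line reaches 2.32 at the shared base and 1.45 at 21 nt.

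A sinusoid over a quadratic baseline, fitted from 21 to 120 nt, measured this spacing for all long sizes together. Inside the long fragment its amplitude was 13.9% of the mean with a period of 10.22 nt, and outside it was 12.9% with 10.32 nt. Without the 23 windows the amplitudes were 12.9% inside and 11.9% outside. Chromosome X had the lowest amplitude inside, 11.6% without those windows, and III the highest, 13.97%. The spacing of short ends thus ran on past the end of the long fragment. The nearness of the pooled amplitudes did not hold within every class of long size. Without the 23 windows the amplitude was 15.4% inside and 9.11% outside for long fragments of 140 to 150 nt, against 11.3% inside and 20.5% outside for those of 210 to 250 nt. The values lay nearer each other in the other classes. They were 11.30% inside and 13.85% outside for 160 to 200 nt, and 13.96% inside and 14.65% outside for 290 to 430 nt.

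The amplitude depended on the exact length of the long fragment. With all windows but the 23, and the long fragments taken 1 size at a time from 130 to 250 nt, the amplitude inside the long fragment was 4.95% around fragments of 136 nt and 32.6% around fragments of 140 nt. It was 9.33% at 146 nt, 26.9% at 150 nt, 4.73% at 157 nt and 24.9% at 160 nt. It went on in this way, with later crests at 171, 181, 191 and 200 nt and troughs between them. The crests became lower up to about 200 nt, where the value was 16.6%, and lay between 16.2 and 17.9% beyond it. No period is given for the troughs, where the fit often ran to the limits of its search.

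Shared ends followed the same register of long sizes more weakly. Their frequency over the neighbouring distances was 2.32 for long fragments of 139 nt, 2.02 for 146 nt, 2.20 for 149 nt and 1.98 for 154 nt. Outside the long fragment the amplitude rippled too, between 5.05% at 144 nt and 13.8% at 149 nt. It increased with long size, to 23.3% at 246 nt, where it exceeded the amplitude inside. Values of 1 size rest on 14945 to 336107 long fragments, fewest at the longest sizes.

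The size of the short fragment mattered in the same manner. Ends shared with long fragments of 140 to 150 nt, over the far level and without the 23 windows, stood at 2.58 for short fragments of 39 nt, 2.42 for 50 nt, 2.40 for 59 nt, 2.49 for 70 nt and 2.58 for 80 nt. Between these sizes the values were lower, at 1.99 for 43 nt, 1.98 for 53 nt, 1.93 for 64 nt and 2.01 for 74 nt. Short fragments of the sizes that were most frequent in their own library therefore had an end in common with a core-length fragment more often than those between. The lowest of the sizes from 26 to 80 nt, 64 nt, still stood well above 1.

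**Figure D2:**
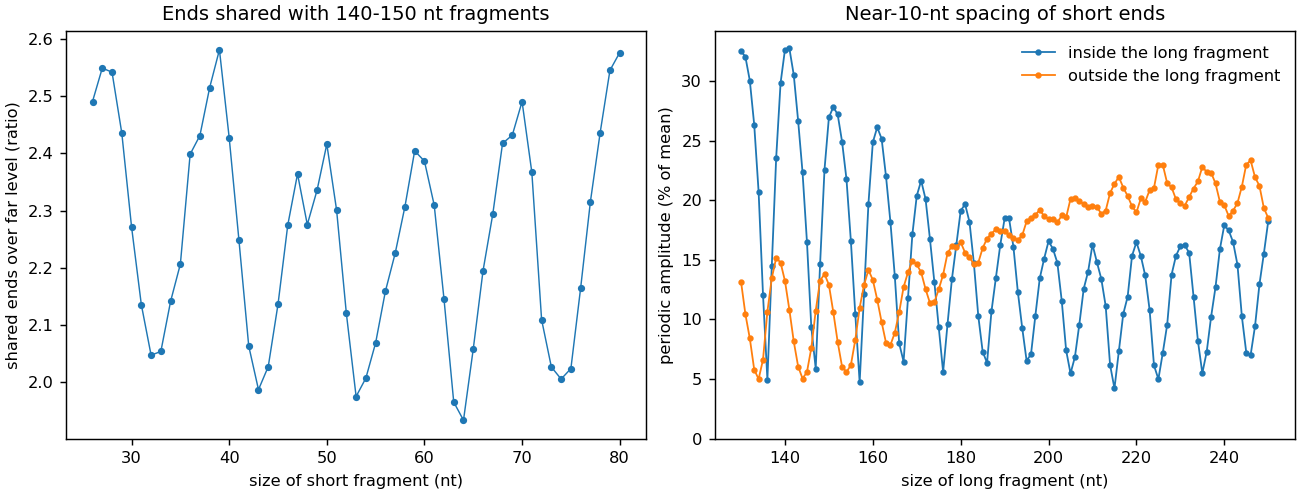
Left, pairs with a shared end over the far level by size of the short fragment, for long fragments of 140 to 150 nt, and right, amplitude of the sinusoid near 10 nt as a percentage of the mean, by size of the long fragment, inside (blue) and outside (orange) the long fragment. Both panels leave out the 23 high windows, and each point is 1 size. Shared ends swing between 1.93 at 64 nt and 2.58 at 39 nt, and the amplitude inside swings, for example, between 32.6% at 140 nt and 4.73% at 157 nt.

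Ends on opposite strands can show the stagger of a cut. Where a cut leaves a 3′ overhang and blunting removes it, the fragments on both sides end with a gap between them. Among gaps of 1 to 6 nt, a short and a long fragment that faced each other in this way had the most pairs at 4 nt, at 1.55 times the far level, or 1.30 times without the 23 windows. A crest at 24 nt was higher, at 1.67 and 1.31. At a gap of 0 nt, with fragments that abut, the values were 1.02 and 0.849. Without the 23 windows the most frequent gap of 1 to 6 nt was 4 nt on each of the 6 chromosomes, whereas with all windows it was 3 nt on I and X.

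Further crests of facing ends lay a whole number of turns away. Around long fragments of 140 to 150 nt and without the 23 windows, the crest at 4 nt stood at 1.28 times the far level, followed by 1.24 at 14 nt, 1.26 at 24 nt and 1.21 at 34 nt. The highest facing crests lay within the long fragment, at gaps of -69 and -90 nt with 1.41 times the far level each, and at -79 nt with 1.40. A short fragment of 69 nt, the most frequent short size, that shares its other end with the long fragment would give a gap of -69 nt. A gap of -90 nt would need a short fragment of 90 nt in the same way, and only 1.38% of the short fragments were longer than 80 nt. The part of shared ends in these crests was not tested.

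The position of short fragments around the middle of long ones was read from their midpoints. Around long fragments of 140 to 150 nt, without the 23 windows, the midpoints of short fragments had a maximum over the centre, at 1.14 times the far level, and another 40 nt to either side, also at 1.14. They had a trough at 75 nt, near the long fragment's ends, at 1.02, and a broad second crest at 173 nt, at 1.06. At 240 to 270 nt the value was 1.01. Left and right of the centre differed by at most 0.307%. With all windows the value from 30 to 50 nt was 1.37 and that from 65 to 85 nt 1.19, and left and right differed by up to 6.32%, so that the shape is given without the 23 windows.

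The crests beside the centre moved outward with the long fragment. They lay at 56 nt for long fragments of 160 to 200 nt, at 85 nt for 210 to 250 nt and at 116 nt for 290 to 430 nt. A short fragment of 59 nt that shares an end with a long fragment of the median size of its class would have its midpoint at 43 nt, 57.5 nt, 84.5 nt and 125 nt in the classes of 140 to 150, 160 to 200, 210 to 250 and 290 to 430 nt. Only the class of 290 to 430 nt had no maximum at its centre, where the value was 1.06 against 1.13 at the crest. That class was also the least symmetric, with up to 3.70% between left and right.

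**Figure D3:**
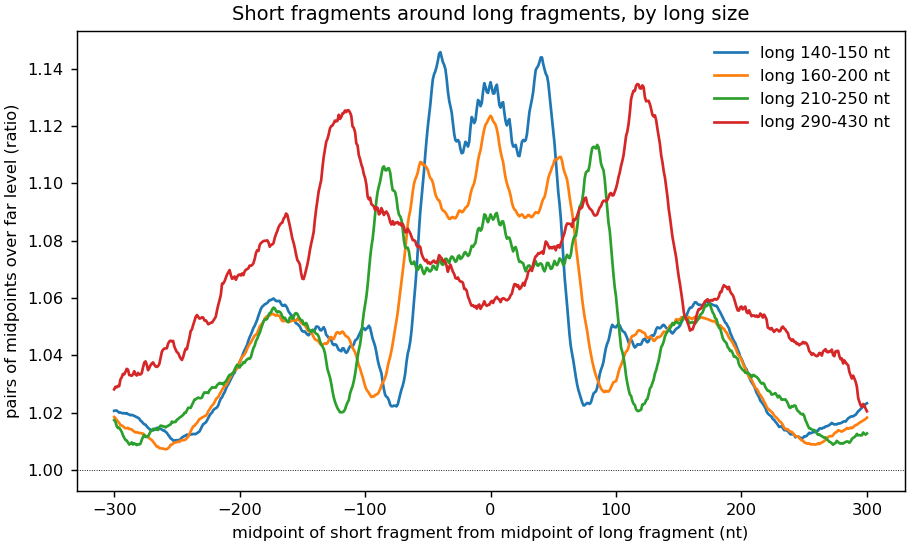
Midpoints of short fragments by their distance from the midpoint of a long fragment, over the mean 1000 to 1500 nt away and smoothed over 11 nt, without the 23 high windows. Each line is 1 size class of the long fragment. The crests beside the centre lie at 40 nt for 140 to 150 nt fragments, 56 nt for 160 to 200 nt and 85 nt for 210 to 250 nt, and the longest class has a dip over its centre, at 1.06, in place of a crest.

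The crest beside the centre moved the other way with the size of the short fragment. In curves smoothed over 11 nt, around long fragments of 140 to 150 nt, it lay at 54 nt for short fragments of 26 to 33 nt. It lay at 51 nt for 34 to 42 nt and at 46 nt for 43 to 52 nt. It lay at 45 nt for 53 to 63 nt, at 40 nt for 64 to 73 nt and at 35 nt for 74 to 80 nt. A shared end would put it at 57.5, 53.5, 48.5, 43, 38 and 33.5 nt, and the crests moved in the same direction as these values. The part of shared ends in the crests beside the centre, by long or by short size, was not tested. The crest was highest for the smallest fragments, 1.25 times the far level at 26 to 33 nt, against 1.17 at 74 to 80 nt.

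Being inside a long fragment also varied with short size. Relative to the far level and without the 23 windows, pairs inside a 140 to 150 nt fragment stood at 1.18 for short fragments of 26 to 33 nt, 1.13 for 43 to 52 nt and 1.16 for 74 to 80 nt. Pairs across an end were at 1.08, 1.04 and 1.03 in the same classes. In each of the 6 classes the value inside was the higher of the pair. The share of short ends at a long end changed little, from 24.5% for 43 to 52 nt to 25.4% for 74 to 80 nt.

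**Figure D4:**
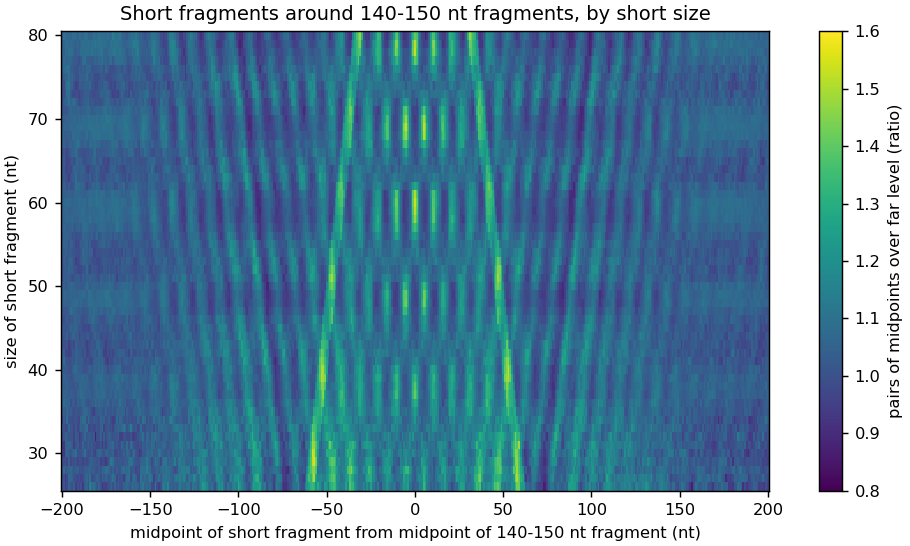
Midpoints of short fragments around the midpoint of long fragments of 140 to 150 nt (horizontal axis, nt) by size of the short fragment (vertical axis, nt), without the 23 high windows. Colour is the number of pairs over the mean 1000 to 1500 nt away, cut at 0.8 and 1.6. Right of the centre the brightest points lie at 57 to 59 nt for short sizes of 26 to 30 nt. The crests at 54 nt in the smallest size class and 35 nt in the largest come from smoothed curves of each class, not from this map. Stripes near 10 nt apart fill the space between the bright slanted edges.

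The ratio of short to long fragments differed along the genome. Over the genome it was 0.398, a value set by the depth of each library, so that ratios are given relative to it. Chromosome III had 1.104 times the genome's ratio (exact 95% interval 1.101 to 1.107), I had 1.089 (1.087 to 1.092) and II had 1.021 (1.019 to 1.024). Chromosome IV had 0.997, X had 0.927 (0.925 to 0.929) and V had 0.925 (0.923 to 0.927). X and V overlapped in their intervals, whereas the other neighbours in this order did not. The intervals cover counting error only, PCR copies are not independent molecules, and nothing here measures the spread between preparations.

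The separately sequenced single-end libraries of 40-90 bp and 140-240 bp endo-cleaved DNA gave the same order. Their ratios over the genome were 1.094 for III, 1.083 for I, 1.017 for II, 0.995 for IV, 0.939 for X and 0.932 for V. X against the autosomes stood at 0.912 (0.910 to 0.914) in the paired-end libraries and 0.926 (0.925 to 0.927) in the single-end libraries. With the long list limited to 140 to 150 nt, 160 to 200 nt, 210 to 250 nt or 290 to 430 nt in turn, III stayed highest, from 1.09 to 1.12, and X ran from 0.916 to 0.931. The order from III down to IV was the same in each class. The intervals of V and X overlapped in 3 of the classes, whereas with long fragments of 210 to 250 nt V stood above X, at 0.937 (0.932 to 0.941) against 0.927 (0.923 to 0.932), so that the order of V and X turned there.

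**Figure D5:**
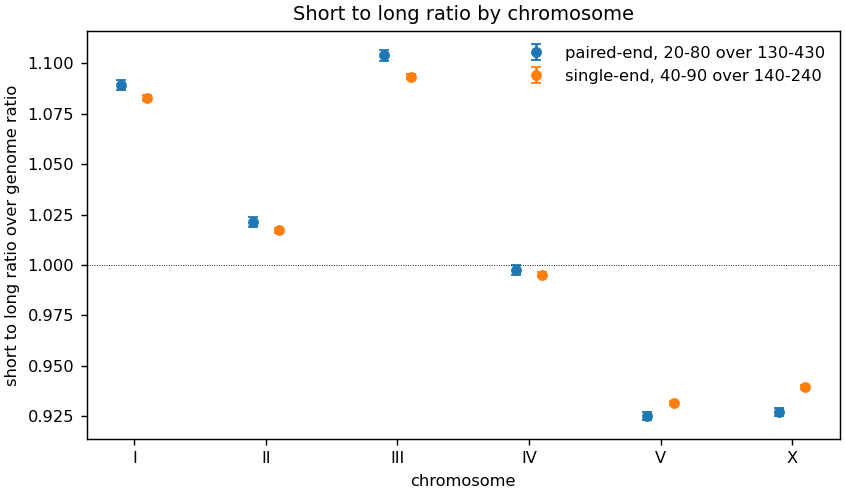
Short to long ratio of each chromosome (horizontal axis) over the ratio of the genome (vertical axis, which does not start at 0). Blue points are the paired-end libraries of 20-80 over 130-430 bp, orange points the single-end libraries of 40-90 over 140-240 bp, and bars are exact 95% intervals for counting error. III stands highest at 1.104 and V lowest at 0.925 in the paired-end libraries, and the single-end points follow the same order.

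The autosomes were richer in short fragments towards their middle. *C. elegans* autosomes have gene-dense centres and arms with more repeats, and X is more even. Over the 5 autosomes the middle part of 3 equal parts had 1.073 times the ratio of the outer parts (exact 95% interval 1.071 to 1.074), and in each of the 5 the middle part stood highest. On chromosome I the 3 parts had 1.062, 1.153 and 1.045 times the genome's ratio from left to right. On X they had 0.932, 0.925 and 0.924, so that the middle did not stand above both sides in the paired-end libraries. In the single-end libraries it did, with 0.9321, 0.9498 and 0.9353 for the 3 parts of X. The megabase with the highest ratio lay on I from 9000001 to 10000000 at 1.22, and the lowest on V from 17000001 to 18000000 at 0.789. In the single-end libraries the same megabases had 1.24 and 0.789.

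Across windows of 1 kb the short and long counts went together only in part. Of 100258 windows, 96350 had at least 20 fragments of each library, with medians of 60 short and 157 long fragments. The Spearman rho between the counts was 0.509 over these windows, which share library and depth and are no replicates, and 0.272 over windows with at least 50 of each. The log2 ratio over the genome had an SD of 0.44, against 0.23 from counting alone, so that windows differed beyond counting error. The ratio was 0.629 times that of the genome at the 5th percentile of the windows and 1.73 times at the 95th.

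A ratio at least 2-fold above the genome's was found in 2039 of the windows, a background of 2.12%, and a ratio at least 2-fold below in 592, a background of 0.614%. These counts come from 1 library of each size range and no test. In windows of 10 kb the shares were 0.0801% above and 0.0300% below, and with at least 50 fragments of each library in a 1-kb window the share below was 0.0898%. Windows above made up 3.97% of the windows of III and 3.63% of those of I, against 0.493% of those of X. Windows below ranged from 0.390% on III to 0.916% on V. Windows above had a median of 94 short and 102 long fragments, and windows below had 35 short and 191 long. The windows were called by the ratio of these same counts, so the medians only describe them.

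Neighbouring windows resembled each other. The rho of the log2 ratio was 0.500 for windows 1 kb apart, 0.217 for 10 kb and 0.081 for 100 kb. Between the paired-end and the single-end ratio of the same window it was 0.640 over 96305 windows. Of the windows above with a single-end ratio, 95.1% were above the genome's ratio in the single-end libraries also, at a median of 1.73-fold, and 94.7% of the windows below were below it there, at a median of 0.729-fold. Of the windows within 2-fold, 42.1% were above the genome's ratio in the single-end libraries and 57.9% below it. The single-end libraries come from the same kind of oocytes and are not repeats of the paired-end size ranges.

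Of the 5 highest windows, 4 lay below this 1.73-fold median in the single-end libraries. The highest ratio was 9.48 times the genome's (exact interval 6.62 to 13.9), on chromosome V from 266001 to 267000, with 39 long fragments, and the single-end libraries had 2.29-fold there. Windows on II from 14338001 to 14339000 and on III from 7447001 to 7448000 followed, at 8.71-fold and 6.38-fold. In the single-end libraries those had 1.04-fold and 1.00-fold, so that the single-end libraries did not show their height. On X from 293001 to 294000 the ratio was 5.82-fold with 472 short and 204 long fragments, against 1.45-fold in the single-end libraries. On III from 1300001 to 1301000 it was 5.50-fold, against 1.45-fold. The window on X is itself among the high windows that were left out of the pair counts above. Those on V and II each adjoin another such window.

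The lowest ratio, 0.152-fold (0.114 to 0.199), lay on V from 17117001 to 17118000 with 56 short and 928 long fragments. This window is itself among the 23 high windows and adjoins the highest of them, and its single-end ratio was 0.777-fold. The next lay on X from 16069001 to 16070000 at 0.275-fold and on V from 2804001 to 2805000 at 0.289-fold. The last of the 5 lowest lay on X from 9197001 to 9198000, at 0.289-fold, and on V from 18150001 to 18151000, at 0.292-fold. All 5 were below the genome's ratio in the single-end libraries as well, at 0.442 to 0.777-fold. No gene is named at these windows, since the build of the lists is not named.

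Windows grouped by their ratio also differed in how their ends lay. The windows were put into 5 equal groups by the short to long ratio, and shared ends and spacing, which the grouping did not use directly, were counted in each. In the group with the highest ratios shared ends stood at 2.33 times their neighbours, against 2.09 in the lowest group. The amplitude inside long fragments was 15.2% in the highest group, against 11.8% in the lowest, and the groups between followed in order in both measures. The median short size was 59 nt in each group, and the median long size was 156 nt in the highest and 157 nt in the others. X supplied 9.14% of the windows of the highest group and 21.5% of those of the lowest, and its part in these differences was not tested.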

How the data were processed

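The libraries were made from fer-1(b232) oocyte DNA: 2 paired-end libraries were compared (20-80 and 130-430 bp), and the single-end libraries of 40-90 and 140-240 bp stood beside them for ratios. The other 4 libraries were not used. The authors deposited lists of mapped fragments with a whole-number count of reads each, not normalized, and by the study's text both reads had to match a unique position perfectly. The submitters' processing notes name Bowtie 0.12.7, and the genome build is not given in the sources used here. Such mapping leaves out repeats, and any removal of PCR copies is not stated. Start and end of each fragment gave its 2 5′ ends, and fragments were weighted by count. Pairs of short and long ends or midpoints were counted by distance up to 1500 nt, the count of the short end times that of the long end, and divided by the mean from 1000 to 1500 nt. Amplitudes come from the best sinusoid of 9.8 to 10.7 nt at distances of 21 to 120 nt. Windows of 1 kb held fragment midpoints and needed 20 fragments of each library. With 1 library per condition no test between conditions was made, and intervals (Wilson or exact binomial, 95%) cover counting error only. Depth was 6097218 short and 15331431 long fragments. The windows named are the 5 highest and 5 lowest ratios. The comparison, its size classes and its alternatives were chosen with earlier results of these data known. The scripts were tested on simulated data. Python 3.11.15, NumPy 2.4.6, pandas 2.3.3, SciPy 1.17.1, Numba 0.67.0 and Matplotlib 3.10.9 were used.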

Additional observations from a re-analysis of the deposited data

How the results depend on the processing

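No paired analysis was possible because each size range has 1 library and no test was made. None of the 83 recomputed values changed its direction. Such a change was possible only for the ratios and the rho, since percentages, shares and amplitudes cannot be negative. The order of inside and across on chromosome X, which turned with the high windows, was not among the 83. Of the 83 values, 22 moved by less than their counting interval, or for the shares of windows by less than 1.5 times. That interval is narrow at this depth, so that most alternatives moved a value past it. Pairs inside over the far level, 1.32 as reported, became 1.18 with each distinct fragment counted once, 1.12 without windows over 5 times the median, 1.317 with the long list thinned to the depth of the short, 1.28 with short fragments of 40 nt or more, 1.29984 with far offsets of 2000 to 2500 nt and 1.302 with sizes inside the labelled ranges, a choice made after seeing the data. Pairs across an end, 1.25 as reported, became 1.09, 1.04, 1.253, 1.21, 1.24 and 1.203 in the same order. Shared ends over their neighbours, 2.37 as reported, became 2.11 with each fragment once, 2.17 without high windows, 2.32 from 40 nt, 2.28 in the labelled ranges and 2.86 with the mean at 5 and 15 nt as the base. The share of short ends at a long end, 25.0%, became 24.79%, 24.85%, 24.92% and 23.95% under the first 4 of these. The amplitude inside, 13.9%, became 12.6% with each fragment once, 12.9% without high windows, 15.5% at 1 to 100 nt and 13.8% in the labelled ranges. Midpoints at 30 to 50 nt from the centre of 140 to 150 nt fragments, 1.37 as reported (1.375), became 1.17 with each fragment once, 1.14 without high windows, 1.368 thinned, 1.348 from 40 nt, 1.354 around the narrower core class and 1.38 in the labelled ranges. X against the autosomes moved only in the labelled ranges, to 0.907. With windows of 10 kb, 0.0801% lay 2-fold above and 0.0300% below, and with at least 50 fragments of each library 0.0898% lay below. That minimum removes windows with few short fragments by its construction. The causes of the other moves were not tested. What limits these values is the single library per condition, the missing genome sequence, and mapping to unique positions only.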
